A study of Mus musculus with 12 samples.

Results

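Insig1 and 7 other genes of sterol synthesis control were followed through 12 expression arrays of mouse epiblast stem cells (EpiSCs), a pluripotent cell type matched to the post-implantation epiblast. The other genes were Insig2, Hmgcs1, Sqle, Idi1, Srebf1, Srebf2 and Scap. The members were every probe set whose only gene symbol in the platform annotation was one of these 8. A probe set is a group of short array probes that reports 1 transcript or part of it. This gave 8 of 18193 genes and 17 of the 34945 probe sets with a single symbol: 5 for Hmgcs1, 3 for Insig2, 2 each for Idi1, Srebf2 and Scap, and 1 each for Insig1, Sqle and Srebf1. No probe set paired a member with a further gene. Diploid cells of strain B6D2F1 and haploid cells of strain 129Sv each came as EpiSC-1 and EpiSC-2, with 3 biological replicates of each. All were kept in N2B27 with bFGF and Activin A, and nothing else was applied to any group. The numbers 1 and 2 were taken to name separate lines, and no clone, sex, passage number or remaining share of haploid cells was given in the sources used here. Ploidy and strain divide the arrays in the same way and cannot be told apart.

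Cholesterol is made in animal cells from acetyl-CoA through the mevalonate pathway. When sterols in the endoplasmic reticulum run low, Scap escorts the SREBP transcription factors, encoded by Srebf1 and Srebf2, to the Golgi, where proteases release their active part to switch on the genes of the pathway. When sterols are plentiful, the Insig proteins hold Scap, and the SREBP bound to it, in the endoplasmic reticulum. Insig1 is itself a target of SREBP, as are the enzyme genes Hmgcs1, Idi1 and Sqle.

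The stretch of 250 bases before the start site is shown for the 4 members with a single start in the RefSeq table of mouse promoters (GRCm38.p6), because SREBP acts there together with NF-Y and Sp1. They are chr5:28071162-28071411 before Insig1, chr13:119690101-119690350 before Hmgcs1, chr13:8885356-8885605 before Idi1 and chr15:82147019-82147268 before Srebf2, all on the plus strand and written 5′ to 3′. Capitals mark matches on either strand to the sterol regulatory element core TCACNCCAC, the E-box CACGTG, the NF-Y box CCAAT and the Sp1 box GGGCGG, with 0 overlaps between matches.
Insig1: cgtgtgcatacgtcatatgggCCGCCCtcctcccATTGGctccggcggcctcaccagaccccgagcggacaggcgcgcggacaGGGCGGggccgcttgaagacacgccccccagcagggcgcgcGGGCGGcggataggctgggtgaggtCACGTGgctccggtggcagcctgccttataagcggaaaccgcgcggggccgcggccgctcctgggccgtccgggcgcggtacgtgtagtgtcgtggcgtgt
Hmgcs1: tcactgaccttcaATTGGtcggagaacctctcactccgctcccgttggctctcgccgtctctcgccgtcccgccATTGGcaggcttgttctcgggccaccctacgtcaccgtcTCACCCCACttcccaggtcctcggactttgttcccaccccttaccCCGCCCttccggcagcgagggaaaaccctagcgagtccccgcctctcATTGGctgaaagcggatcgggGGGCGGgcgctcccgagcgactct
Idi1: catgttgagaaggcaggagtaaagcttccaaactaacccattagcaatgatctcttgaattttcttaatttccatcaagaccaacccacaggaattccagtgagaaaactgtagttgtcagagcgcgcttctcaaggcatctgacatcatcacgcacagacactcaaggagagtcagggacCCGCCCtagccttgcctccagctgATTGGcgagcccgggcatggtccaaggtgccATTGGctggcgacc
Srebf2: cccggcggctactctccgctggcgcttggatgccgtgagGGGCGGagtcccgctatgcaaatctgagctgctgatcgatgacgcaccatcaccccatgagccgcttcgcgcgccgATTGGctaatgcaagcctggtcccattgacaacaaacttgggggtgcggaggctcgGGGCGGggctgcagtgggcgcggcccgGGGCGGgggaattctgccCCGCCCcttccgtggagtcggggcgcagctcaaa
The Hmgcs1 stretch held 1 match to TCACNCCAC, which 1.05% of the 32851 mouse promoters of this length in the table hold, with 3 CCAAT and 2 GGGCGG matches. The Insig1 stretch held 0 matches to TCACNCCAC and 1 to CACGTG, which 6.02% of promoters hold, with 1 CCAAT and 3 GGGCGG matches. Idi1 had 2 CCAAT and 1 GGGCGG match, and Srebf2 had 1 and 4. CCAAT was in 33.8% of all promoters and GGGCGG in 32.7%. These letters describe the windows and do not say which factor binds there. Insig2 and Srebf1 have 3 starts each in the table and Scap has 2.

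Values are MAS5 signals on a linear scale, one per probe set and array, in the order replicate 1, 2 and 3 wherever 3 are given. Differences are given on the log2 scale, as the first line named minus the second, with their standard error (SE). Probe sets were tested with limma where the mean signal reached 62.6, the middle of all probe sets. This left 16 of the 17 members among 19837 probe sets. The exception was Scap 1442885_at, at 4.81 to 43.6, under that level in all 12 arrays. A difference was called where the Benjamini-Hochberg adjusted p, taken over all 19837 probe sets, was under 0.05. The labels name biological replicates without saying how they were separated, so p-values between lines measure the spread between these arrays. The median SD of a probe set within a line was 0.10 to 0.12 on the log2 scale.

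The lines were checked against their labelled cell type before the comparisons. All 8 epiblast markers on the list (Pou5f1, Nanog, Sox2, Fgf5, Otx2, Dnmt3b, Sox3 and Tdgf1) reached the signal level for testing in every line. Their summed signal was 59419 to 62888 in diploid EpiSC-1, 49006 to 50284 in diploid EpiSC-2, 24232 to 24879 in haploid EpiSC-1 and 34811 to 36602 in haploid EpiSC-2. Fgf5 and Otx2 were near the level for testing in haploid EpiSC-1, with mean signals of 86.9 and 74.0, whereas Sox2 was higher in the haploid lines (4537 and 3383) than in the diploid lines (1005 and 1175). Of 9 fibroblast feeder markers, 3, 6, 9 and 9 reached that level in the 4 lines in the same order. Their summed signal was 1114 to 1206, 1989 to 2077, 25147 to 25789 and 28337 to 28935, so it was far higher in both haploid lines. Acta2, Col1a2 and Col3a1 made up most of the sum in those lines. Thy1 was highest in diploid EpiSC-1, with a mean of 203, against 109 in diploid EpiSC-2 and 132 and 118 in the haploid lines. No feeder marker was at 0 in any line, but the lowest of all signals was 0.0453, so this does not tell whether feeder RNA was present. Of 4 visceral endoderm markers 0 or 1 reached the level per line, and of the hepatocyte markers Alb, Apob and Cyp7a1 0 did. In the same line order, actin control 3′ over 5′ ratios were 1.46 to 1.53, 1.57 to 1.68, 1.34 to 1.38 and 1.39 to 1.42. Those of Gapdh were 0.821 to 0.850, 0.913 to 0.938, 0.836 to 0.859 and 0.839 to 0.870. Both ratios were highest in diploid EpiSC-2. In bulk RNA, fewer cells of a type and less RNA per cell cannot be told apart.

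Insig1, the sterol sensor partner that holds Scap in the endoplasmic reticulum, was strong in both haploid lines, weak in diploid EpiSC-1 and near background in diploid EpiSC-2. Its only probe set, 1454671_at, read 183, 205 and 164 in diploid EpiSC-1 and 0.727, 7.18 and 12.8 in diploid EpiSC-2. It read 3270.04, 3574 and 3324 in haploid EpiSC-1 and 4104, 3906 and 4114 in haploid EpiSC-2. No haploid array overlapped a diploid one, and all 3 arrays of diploid EpiSC-2 lay under the level for testing.

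**Figure D1:**
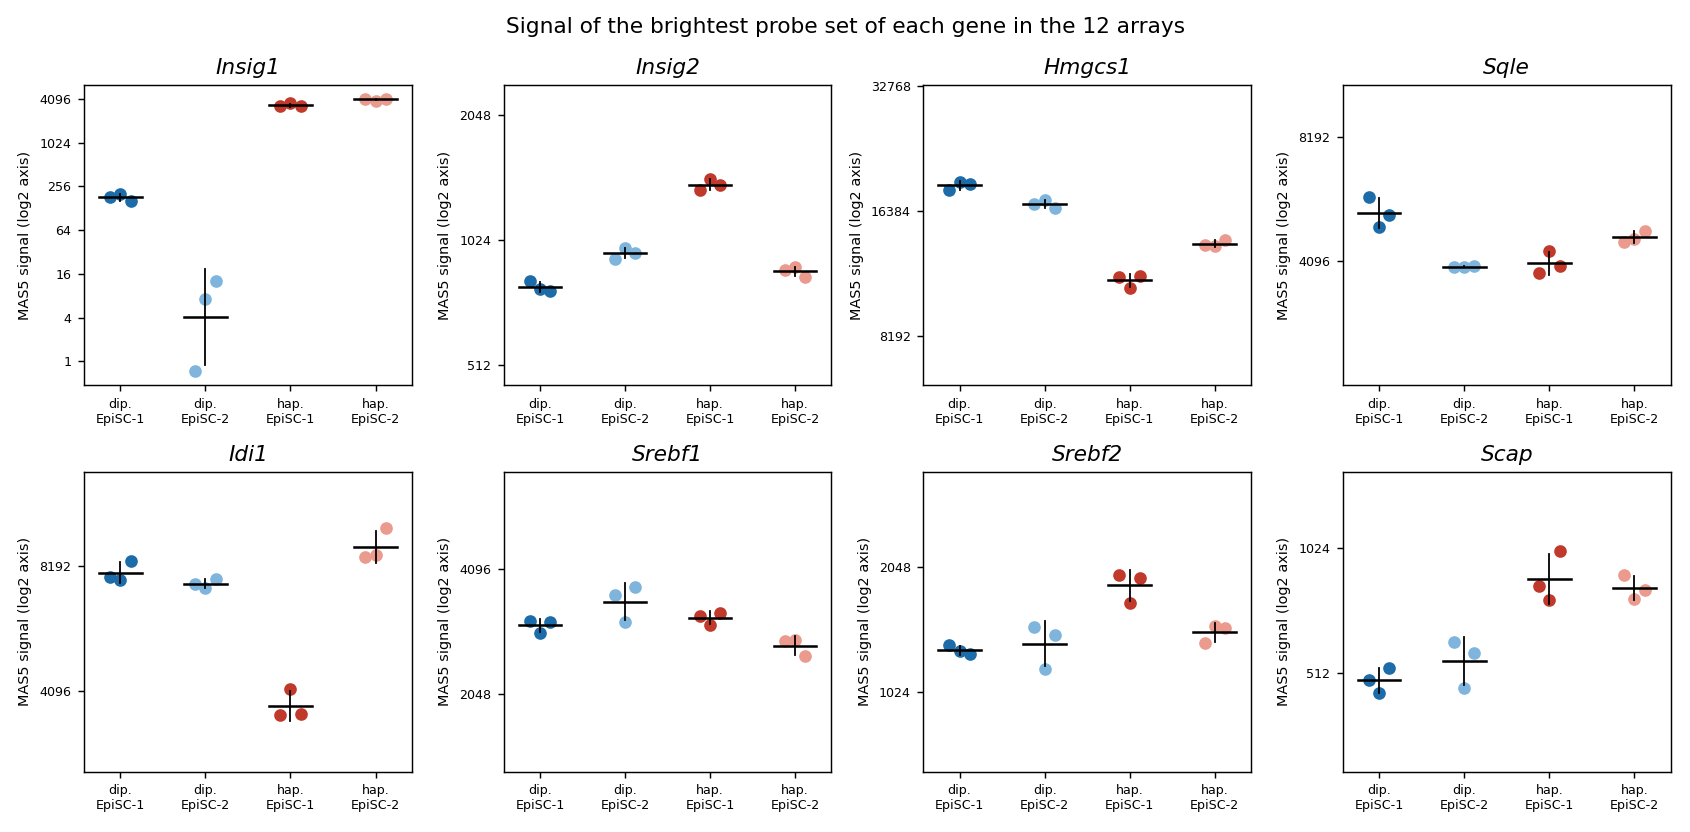
MAS5 signal (log2 axis) of the brightest probe set of each of the 8 genes in the 12 arrays. Points are arrays, horizontal bars the mean of log2 signals and vertical bars the SD on that scale (n = 3). Insig1 has an axis of its own span: the 6 haploid arrays lie at 3270.04 to 4114 and the diploid arrays at 0.727 to 205. The other 7 panels share 1 span.

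Each haploid line exceeded each diploid line in Insig1 beyond the replicate spread. Haploid EpiSC-1 was 4.21 higher than diploid EpiSC-1 (SE 0.68, adjusted p = 6.2e-05), an 18.5-fold difference, and haploid EpiSC-2 was 4.46 higher (SE 0.68, adjusted p = 5.1e-05), or 22.1-fold. Against diploid EpiSC-2 the differences were 9.71 and 9.96 (adjusted p = 1.0e-08 and 1.1e-08), but their size rests on readings near background. With every signal under 62.6 raised to 62.6, an alternative chosen after seeing the data, they were 5.76 and 6.01. The diploid lines also differed from each other: diploid EpiSC-2 fell by 5.50 relative to diploid EpiSC-1 (SE 0.68, adjusted p = 9.1e-06), and by 1.55 with the raised floor. Without diploid EpiSC-2 replicate 1, the array at 0.727, the difference was -4.26. The haploid lines are neighbours in the order of levels that did not differ beyond the common spread, at 0.25 (SE 0.68, adjusted p = 0.78). That SE takes in the scatter of the near-background arrays; with the floor it was 0.081 and the same 0.25 was called (adjusted p = 0.017). Summed feeder markers were higher in both haploid lines, as Insig1 was, but between the diploid lines they were higher in EpiSC-2, where Insig1 was lower. The part of the feeder markers in the result was not tested. Nor was that of the 3′ to 5′ control ratios, which were highest in diploid EpiSC-2.

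Between the ploidies, with the 4 line means as the units, Insig1 was 7.09 higher in the haploid cells (SE 1.55, unadjusted p = 0.0032, adjusted p = 0.071) and did not pass. It did pass without diploid EpiSC-1 (9.83, adjusted p = 8.5e-04), without diploid EpiSC-2 (4.34, adjusted p = 0.0032) and without diploid EpiSC-2 replicate 1 (6.47, adjusted p = 0.049). In these fits the distance between the diploid lines enters the error less or not at all. Without haploid EpiSC-1 or haploid EpiSC-2 it stayed at 7.21 and 6.96 and did not pass (adjusted p = 0.31 and 0.20). In the same limma test 0 of the 16 member probe sets were called, while 3.03% of all probe sets were, 2.01% higher and 1.02% lower in haploid cells. At an unadjusted p under 0.05 there were 6 of 16 member probe sets and 3903 of 19837 probe sets (19.7%). The 6 were those of Insig1 and Scap and 4 of the Hmgcs1 probe sets, which are repeat readings of 1 gene. A limma fit of the 12 arrays with the line as a random block called 5 of the 16, namely Insig1 and 4 of the Hmgcs1 probe sets, and 15.9% of all probe sets. Over 4 lines such a fit was known from earlier work on these data to call many unchanged genes in simulation. Its calls are therefore no evidence of a difference between the ploidies.

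Over single arrays, 2 of the 16 members had every haploid array above every diploid one (Insig1 and Scap), against 16.3% of all probe sets. A further 4, all of Hmgcs1, had every haploid array below every diploid one, against 12.5%. The other 10 overlapped, and over all probe sets 28.8% did not overlap in one direction or the other.

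Insig2, the second Insig gene, followed another order, with haploid EpiSC-1 above every other line beyond the spread in 2 of its 3 probe sets. Its brightest probe set, 1417981_at, read 817, 781 and 773 in diploid EpiSC-1 and 925, 982 and 953 in diploid EpiSC-2. The haploid readings were 1355, 1437 and 1394 in EpiSC-1 and 868, 881 and 836 in EpiSC-2. So haploid EpiSC-1 stood clear of all other arrays, and the other 3 lines lay closer together without overlapping. Between the diploid lines, EpiSC-2 was 0.27 higher than EpiSC-1 in this probe set (SE 0.05, adjusted p = 8.0e-04).

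Haploid EpiSC-1 exceeded diploid EpiSC-1 by 0.82 (SE 0.05, adjusted p = 5.2e-09) and diploid EpiSC-2 by 0.55 (SE 0.05, adjusted p = 5.0e-07) in 1417981_at. Haploid EpiSC-2 was lower than haploid EpiSC-1 by a log2 difference of -0.70 (SE 0.05, adjusted p = 1.3e-07) and did not differ from diploid EpiSC-1 beyond the spread (0.12, adjusted p = 0.066). Its difference of -0.15 from diploid EpiSC-2 (adjusted p = 0.032) was no longer called without diploid EpiSC-2 replicate 2 (-0.12) or 3 (-0.15), or without haploid EpiSC-2 replicate 1 (-0.15) or 3 (-0.12). The other Insig2 probe sets kept haploid EpiSC-1 in front of haploid EpiSC-2, by 0.83 in 1417980_a_at and 0.98 in 1417982_at. They disagreed on diploid EpiSC-2. In 1417980_a_at haploid EpiSC-1, at 836, 901 and 749.6, overlapped diploid EpiSC-2 and did not differ from it beyond the spread (0.17, adjusted p = 0.18). In this probe set diploid EpiSC-2 read 717, 835 and 662, above the 478, 592 and 453 of diploid EpiSC-1 (0.54, adjusted p = 7.9e-04). In 1417982_at it read 398, 443 and 421 beside 448, 360.3 and 427, so the lines overlapped (0.04, adjusted p = 0.79).

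Scap, which carries the SREBPs out of the endoplasmic reticulum, was higher in both haploid lines than in both diploid ones. Probe set 1433520_at read 492, 459 and 526 in diploid EpiSC-1 and 608, 472 and 572 in diploid EpiSC-2. It read 832, 769.6 and 1009 in haploid EpiSC-1 and 883, 772 and 812 in haploid EpiSC-2. The haploid arrays all lay above the diploid ones, and lines of the same ploidy overlapped.

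The 4 differences between a haploid and a diploid line in Scap 1433520_at were 0.58 to 0.81 (SE 0.11), each called, with adjusted p of 1.2e-05 to 3.4e-04. Lines of the same ploidy were 0.16 (adjusted p = 0.26) and -0.07 (adjusted p = 0.61) apart. With line means as units the difference was 0.70 (SE 0.24, adjusted p = 0.18), not called. Averaging it with the dim Scap 1442885_at, which had no order among lines (means of 10.4 to 23.3), ended all 4 calls and gave -0.0024 and -0.018 for haploid EpiSC-2 against the diploid lines. Feeder marker sums were also higher in both haploid lines; their part was not tested.

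Srebf1 encodes the SREBP best known for fatty acid synthesis. Its probe set 1426690_a_at read 3063, 2873 and 3051 in diploid EpiSC-1 and 3538, 3039.8 and 3699 in diploid EpiSC-2. In the haploid lines it read 3157, 2992 and 3206 in EpiSC-1 and 2738, 2764 and 2518 in EpiSC-2. The levels of all 4 lines lay within a narrow range, with diploid EpiSC-2 highest and haploid EpiSC-2 lowest.

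Only the widest of the Srebf1 gaps, haploid EpiSC-2 against diploid EpiSC-2 (-0.35, SE 0.07, adjusted p = 3.0e-04), was called under every alternative run. Diploid EpiSC-2 was 0.19 above diploid EpiSC-1 (adjusted p = 0.026), a call lost without diploid EpiSC-1 replicate 2 (0.16) or diploid EpiSC-2 replicate 1 (0.16) or 3 (0.13). It was also lost with quantile normalization (0.15, adjusted p = 0.061) and without the intensity trend of the limma fit (adjusted p = 0.063). Haploid EpiSC-2 against haploid EpiSC-1 gave -0.22 (adjusted p = 0.012), lost without haploid EpiSC-2 replicate 3 (-0.18) and with arrays centred on their medians (-0.06). Haploid EpiSC-2 against diploid EpiSC-1 gave -0.16 (adjusted p = 0.045), lost without diploid EpiSC-1 replicate 1 or 3, diploid EpiSC-2 replicate 1, haploid EpiSC-1 replicate 1 or 3 or haploid EpiSC-2 replicate 1 or 3, at -0.18 to -0.12. Dropping the signal filter or the intensity trend also ended this call (adjusted p = 0.066 and 0.093). Haploid EpiSC-1 did not differ from diploid EpiSC-1 (0.06, adjusted p = 0.46) beyond the spread; with median centring this turned to -0.19 (adjusted p = 0.032). Its -0.13 from diploid EpiSC-2 (adjusted p = 0.093) became a call with median centring (-0.42) and without diploid EpiSC-2 replicate 2 (-0.21).

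Srebf2, whose SREBP favours the cholesterol genes, gave different orders with its 2 probe sets. The brighter, 1426744_at, read 1325, 1284 and 1260.2 in diploid EpiSC-1 and 1464, 1162 and 1404 in diploid EpiSC-2, and 1959.8, 1670.4 and 1924 in haploid EpiSC-1 and 1339, 1476 and 1458 in haploid EpiSC-2. Here haploid EpiSC-1 was highest, above diploid EpiSC-1 by 0.52 (SE 0.08, adjusted p = 6.1e-05) and above haploid EpiSC-2, which stood at -0.38 from it (adjusted p = 0.0017). With the mean of both probe sets neither was called (0.11, adjusted p = 0.20, and -0.17, adjusted p = 0.074). Its 0.47 above diploid EpiSC-2 (adjusted p = 1.7e-04) was not called with median centring (0.17, adjusted p = 0.081). The dimmer, 1452174_at, read 816, 703 and 780.3 in diploid EpiSC-1, 615, 577 and 565 in diploid EpiSC-2, 671, 572 and 634 in haploid EpiSC-1 and 614, 669 and 641 in haploid EpiSC-2. In it diploid EpiSC-1 was highest, and haploid EpiSC-1 stood at -0.29 from it (adjusted p = 0.0048), the opposite sign to 1426744_at.

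The Srebf2 disagreement was itself larger than the replicate spread. Relative to 1426744_at in the same array, 1452174_at of haploid EpiSC-1 stood at -0.81 from that of diploid EpiSC-1 (SE 0.09, adjusted p = 1.0e-04 over 8732 pairs of probe sets of 1 gene). It was -0.44 between the diploid lines (adjusted p = 0.0044). Diploid EpiSC-2 stood at -0.39 from diploid EpiSC-1 in 1452174_at (adjusted p = 9.3e-04), and haploid EpiSC-2 at -0.26 (adjusted p = 0.013), a call lost without diploid EpiSC-1 replicate 1 (-0.21) or haploid EpiSC-2 replicate 1 (-0.22). Haploid EpiSC-1 and diploid EpiSC-2 did not differ in it (0.09, adjusted p = 0.31), and median centring turned that to -0.20 (adjusted p = 0.045).

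Hmgcs1 makes HMG-CoA, an early intermediate of the mevalonate pathway, and was lower in both haploid lines. Probe set 1433445_x_at read 18432, 19296 and 19027 in diploid EpiSC-1 and 17096, 17404 and 16651 in diploid EpiSC-2. It read 11361, 10699 and 11442 in haploid EpiSC-1 and 13573, 13545 and 13999 in haploid EpiSC-2. All haploid arrays lay below all diploid ones, and the lines did not overlap one another. The order of the 4 lines was also that of the summed epiblast markers; the part of those markers was not tested.

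Haploid EpiSC-1 stood at -0.76 from diploid EpiSC-1 in 1433445_x_at (SE 0.04, adjusted p = 1.5e-10), a 1.69-fold lower signal, and at -0.61 from diploid EpiSC-2. Haploid EpiSC-2 stood at -0.46 and -0.31 from the diploid lines (adjusted p = 6.1e-08 and 3.5e-06) and 0.30 above haploid EpiSC-1 (adjusted p = 1.2e-05). The gap of -0.15 between the diploid lines (adjusted p = 0.0033) was not called with median centring (-0.10, adjusted p = 0.054). With line means as units the ploidies differed by -0.54 (SE 0.16, adjusted p = 0.14), not called. The letter x in a probe set name marks probes that may also bind related transcripts.

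Of the other Hmgcs1 probe sets, 1433444_at, 1433443_a_at and 1433446_at were lower in each haploid line than in each diploid line, by log2 differences of -1.50 to -0.25, all 12 called. Of these, 1 was lost with quantile normalization, that of 1433443_a_at between haploid EpiSC-2 and diploid EpiSC-2 (-0.25 against -0.07). The dimmest, 1441536_at, read 406, 478 and 469 in diploid EpiSC-1 and 238, 242 and 182 in diploid EpiSC-2, with 131, 106 and 112 in haploid EpiSC-1 and 278, 343 and 313 in haploid EpiSC-2. So its haploid EpiSC-2 arrays lay above those of diploid EpiSC-2 (0.50, SE 0.14, adjusted p = 0.0062), where the other 4 probe sets of Hmgcs1 were lower.

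The Hmgcs1 probe sets reported the gap between the diploid lines unequally, as the plot of probe sets of the same gene shows. It was -0.15 in 1433445_x_at and 1433444_at and -0.04 (adjusted p = 0.52) in 1433443_a_at, but -0.78 in 1433446_at and -1.04 in 1441536_at. Relative to 1433445_x_at in the same array, 1433446_at shifted by -0.63 (SE 0.09, adjusted p = 3.6e-04) and 1441536_at by -0.89 (SE 0.15, adjusted p = 0.0012). Between the haploid lines 1441536_at shifted by 1.13 (SE 0.15, adjusted p = 0.0014) and 1433446_at by 0.15 (adjusted p = 0.36). Where these probe sets lie along the transcript was not looked at here. The 3′ to 5′ ratios of actin and Gapdh were highest in diploid EpiSC-2, and their part in the unequal gaps was not tested.

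**Figure D2:**
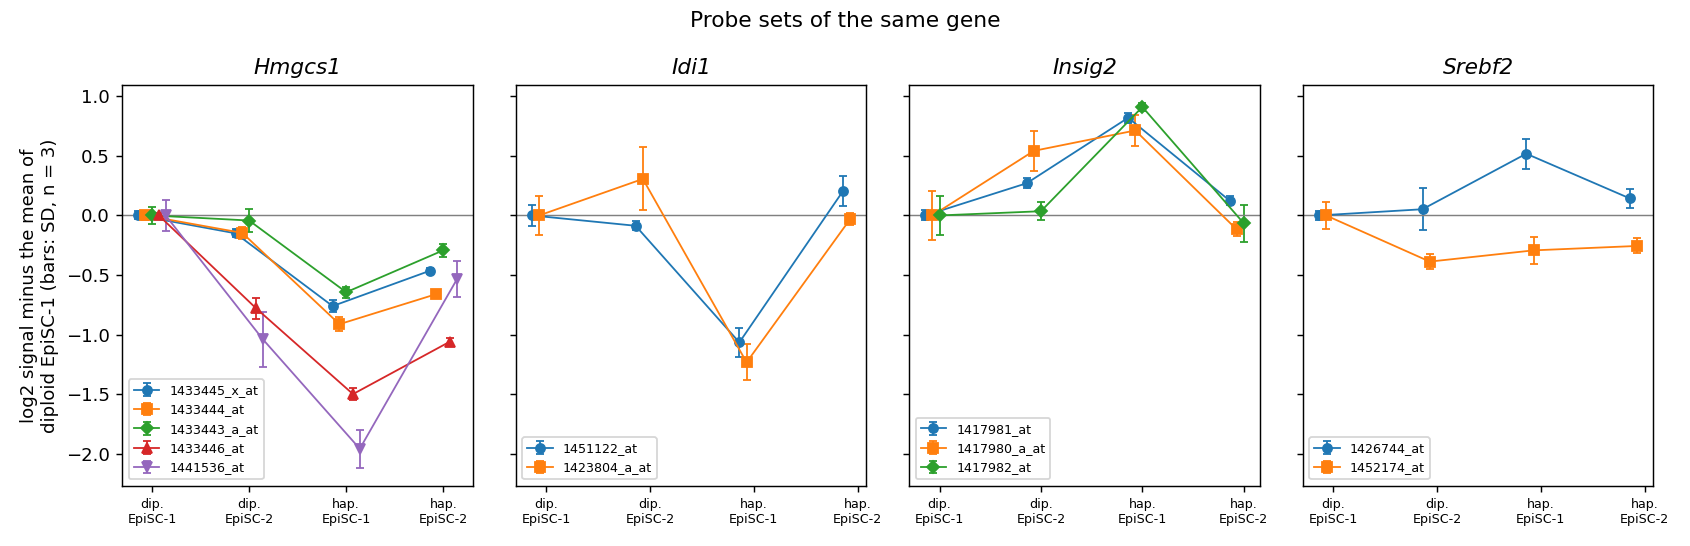
Log2 signal of each tested probe set minus its own mean in diploid EpiSC-1, for the 4 genes with several tested probe sets, in the 4 lines. Points are means and bars SDs (n = 3); lines join points of 1 probe set only to guide the eye. In diploid EpiSC-2, 1433446_at and 1441536_at of Hmgcs1 lie at -0.78 and -1.04 while the other 3 lie at -0.15 to -0.04, and the 2 Srebf2 probe sets part in every line but diploid EpiSC-1, the reference.

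Idi1, the isomerase that makes dimethylallyl diphosphate, was low in haploid EpiSC-1 and not in haploid EpiSC-2. Probe set 1451122_at read 7701, 7586 and 8452 in diploid EpiSC-1 and 7437, 7246 and 7651 in diploid EpiSC-2. It read 3586, 4149.8 and 3617 in haploid EpiSC-1 and 8611, 8701 and 10107 in haploid EpiSC-2. The haploid lines thus lay on either side of the diploid lines.

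Haploid EpiSC-1 stood at -1.07 from diploid EpiSC-1 (SE 0.07, adjusted p = 3.2e-09) and at -0.98 from diploid EpiSC-2 (adjusted p = 1.0e-08), and haploid EpiSC-2 was 1.27 above it (adjusted p = 2.7e-09), a 2.41-fold difference. Probe set 1423804_a_at gave -1.23, -1.54 and 1.20 for the same comparisons, each called. The diploid lines did not differ in 1451122_at beyond the spread (-0.09, adjusted p = 0.31), although quantile normalization called -0.23 (adjusted p = 0.0097). The 0.31 between them in 1423804_a_at (adjusted p = 0.033) was lost without diploid EpiSC-1 replicate 1 (0.30) or 3 (0.23) and without diploid EpiSC-2 replicate 1 (0.31) or 2 (0.17). Quantile normalization (0.24, adjusted p = 0.087) and a limma fit without the intensity trend (adjusted p = 0.079) also ended this call.

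For haploid EpiSC-2 against the diploid lines the Idi1 probe sets differed. In 1451122_at it was 0.21 above diploid EpiSC-1 (adjusted p = 0.018) and 0.29 above diploid EpiSC-2 (adjusted p = 0.0018), and neither was called with median centring (0.13 and 0.17). The first was also lost without diploid EpiSC-1 replicate 1 (0.19) or 2 (0.18) or haploid EpiSC-2 replicate 3 (0.13), and without the intensity trend (adjusted p = 0.056). With the mean of both probe sets neither was called (0.09 and -0.02). In 1423804_a_at haploid EpiSC-2 stood at -0.03 (adjusted p = 0.85) and -0.34 (adjusted p = 0.018), the second lost without diploid EpiSC-2 replicate 2 (-0.20) or haploid EpiSC-2 replicate 1 (-0.31). That call was also lost with quantile normalization (-0.26, adjusted p = 0.058) and without the intensity trend (adjusted p = 0.0501). The shift between the 2 probe sets relative to diploid EpiSC-2 was -0.63 (SE 0.15, adjusted p = 0.0071) in haploid EpiSC-2 and -0.56 (adjusted p = 0.012) in haploid EpiSC-1.

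Sqle, the squalene epoxidase, was highest in diploid EpiSC-1. Probe set 1415993_at read 5865, 4954 and 5298 there and 3975, 3966 and 3996 in diploid EpiSC-2. It read 3835, 4333 and 4002 in haploid EpiSC-1 and 4564, 4649.9 and 4852 in haploid EpiSC-2. Haploid EpiSC-1 and diploid EpiSC-2 overlapped, and haploid EpiSC-2 lay between them and diploid EpiSC-1.

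Diploid EpiSC-2 stood at -0.43 from diploid EpiSC-1 in Sqle (SE 0.06, adjusted p = 2.5e-05) and haploid EpiSC-1 at -0.40 (adjusted p = 2.3e-05). Haploid EpiSC-2 stood at -0.19 (adjusted p = 0.011), a call lost without diploid EpiSC-1 replicate 1 (-0.13). It was 0.21 above haploid EpiSC-1 (adjusted p = 0.0082) and 0.24 above diploid EpiSC-2 (adjusted p = 0.0028), the latter not called with median centring (0.11). Haploid EpiSC-1 and diploid EpiSC-2 were neighbours that did not differ (0.03, adjusted p = 0.71); centring gave -0.27 (adjusted p = 0.0018) and quantile normalization 0.16 (adjusted p = 0.022), which are calls in opposite directions.

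**Figure D3:**
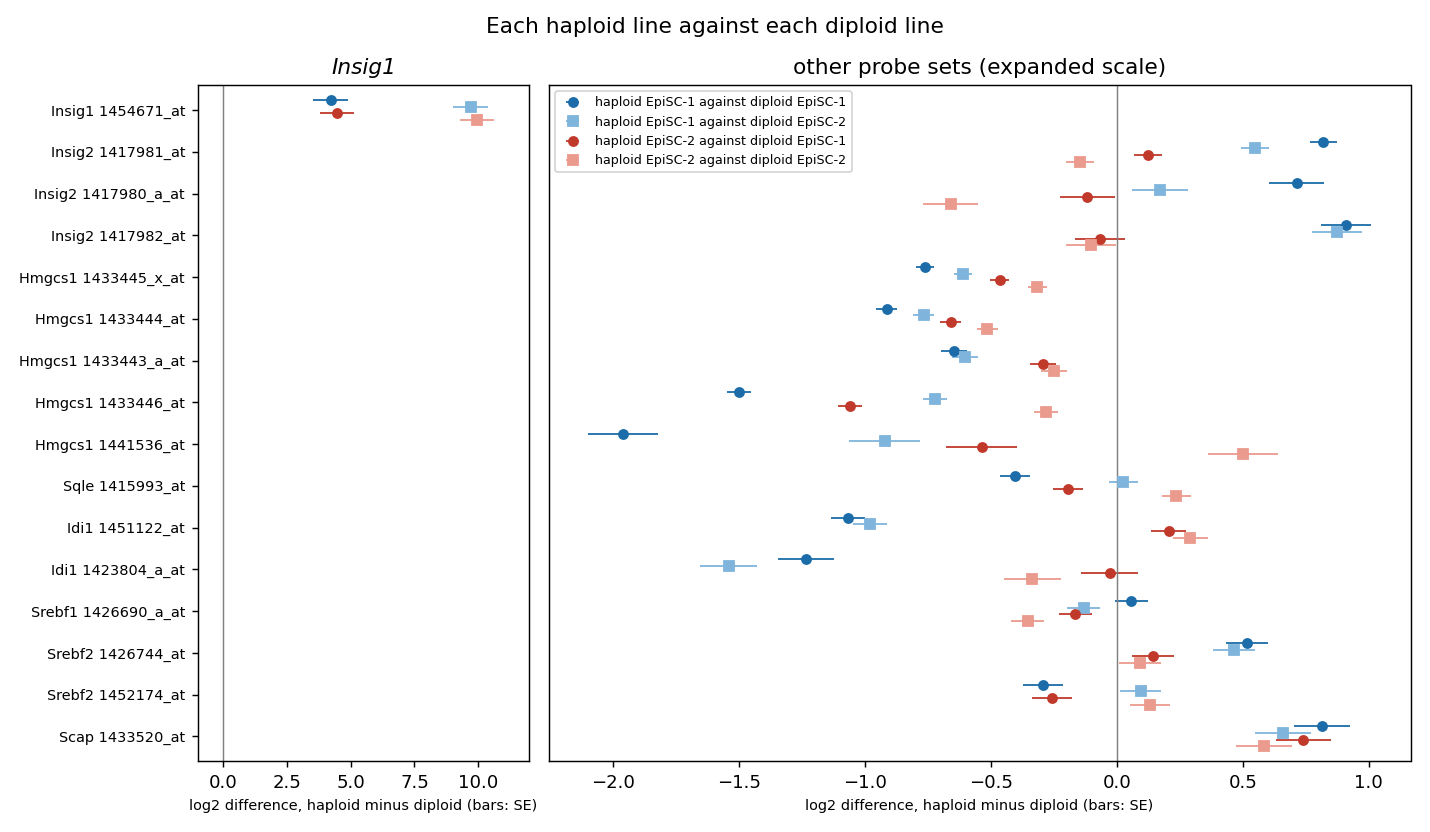
Log2 difference of each haploid line from each diploid line for the 16 tested probe sets, with bars of 1 SE from the limma fit. Insig1, on the left with its own axis, lies at 4.21 to 9.96. On the right, Scap and Srebf2 1426744_at lie above 0, and 4 of the Hmgcs1 probe sets and Idi1 1423804_a_at below 0, in all 4 comparisons, although not every such difference of Srebf2 and Idi1 was called. The other 8 probe sets lie on both sides of 0.

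Counted over all members, 11 of 16 probe sets were called between the diploid lines, 4 higher and 7 lower in diploid EpiSC-2, where 53.3% of all probe sets were called (22.4% higher, 30.9% lower). Between the haploid lines 13 were called, 8 higher and 5 lower in haploid EpiSC-2, against 49.5% (22.8% and 26.7%). The 8 were probe sets of Hmgcs1, Idi1 and Sqle only, and the 5 were of Insig2, Srebf1 and Srebf2 only. Haploid EpiSC-1 differed from diploid EpiSC-1 in 15 (6 higher, 9 lower; 66.9% of all probe sets, 34.3% and 32.7%) and from diploid EpiSC-2 in 12 (5 and 7; 67.1%, 38.4% and 28.7%). Haploid EpiSC-2 differed from diploid EpiSC-1 in 11 (3 and 8; 57.5%, 28.4% and 29.2%) and from diploid EpiSC-2 in 13 (5 and 8; 62.3%, 35.1% and 27.3%). Without diploid EpiSC-1 replicate 1, the count of 11 for haploid EpiSC-2 against diploid EpiSC-1 was 7. These comparisons share arrays. Of the 16 probe sets 5 are of Hmgcs1, so counts and medians of probe sets are not those of genes. The median difference over the 16 members was -0.06 between the diploid lines, where that over all probe sets was also -0.06, and 0.23 between the haploid lines, where that over all probe sets was -0.04. Centring each array on its median moved the median of all probe sets from 0.02 to -0.23 for haploid against diploid EpiSC-1, from 0.09 to -0.20 for haploid EpiSC-1 against diploid EpiSC-2 and from -0.04 to 0.12 between the haploid lines.

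Unequal reports by probe sets of the same gene were counted in the same way, over the 8 further member probe sets set against the brightest of their gene. Between the diploid lines 3 of 8 were called, against 34.6% of all 8732 pairs, and between the haploid lines 2, against 8.7%. Haploid EpiSC-1 gave 3 against diploid EpiSC-1 (25.7%) and 4 against diploid EpiSC-2 (46.2%). Haploid EpiSC-2 gave 2 (20.8%) and 4 (44.6%). The count between the diploid lines was 6 without diploid EpiSC-1 replicate 2, that for haploid EpiSC-1 against diploid EpiSC-2 was 2 without diploid EpiSC-2 replicate 1, and that between the haploid lines was 1 in 5 of the 12 fits that leave out an array, those without a haploid array other than haploid EpiSC-2 replicate 3.

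The other enzymes of the pathway were counted through the brightest probe set of each gene. Of 20 listed, 16 were tested, Idi2 lay under the signal level, and the others were not analysed here. In diploid EpiSC-2, 0 were higher and 13 lower than in diploid EpiSC-1, with a median of -0.63, where 26.1% of all 11105 genes were higher and 29.1% lower, with a median of -0.01. The 4 with the lowest p were Msmo1 (-0.75), Cyp51 (-0.94), Fdft1 (-0.67) and Lss (-1.06), which are a sterol methyl oxidase, the lanosterol demethylase, squalene synthase and lanosterol synthase. Median centring gave 1 higher and 12 lower, with a median of -0.59, and quantile normalization 0 and 14. The 3′ to 5′ ratios of actin and Gapdh were highest in diploid EpiSC-2, and their part in these counts was not tested. The largest drop, chosen after its values were seen, was that of Dhcr7, which makes cholesterol in its last step, at -1.52 (adjusted p = 1.8e-08), from a mean signal of 3689 to 1287.

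**Figure D4:**
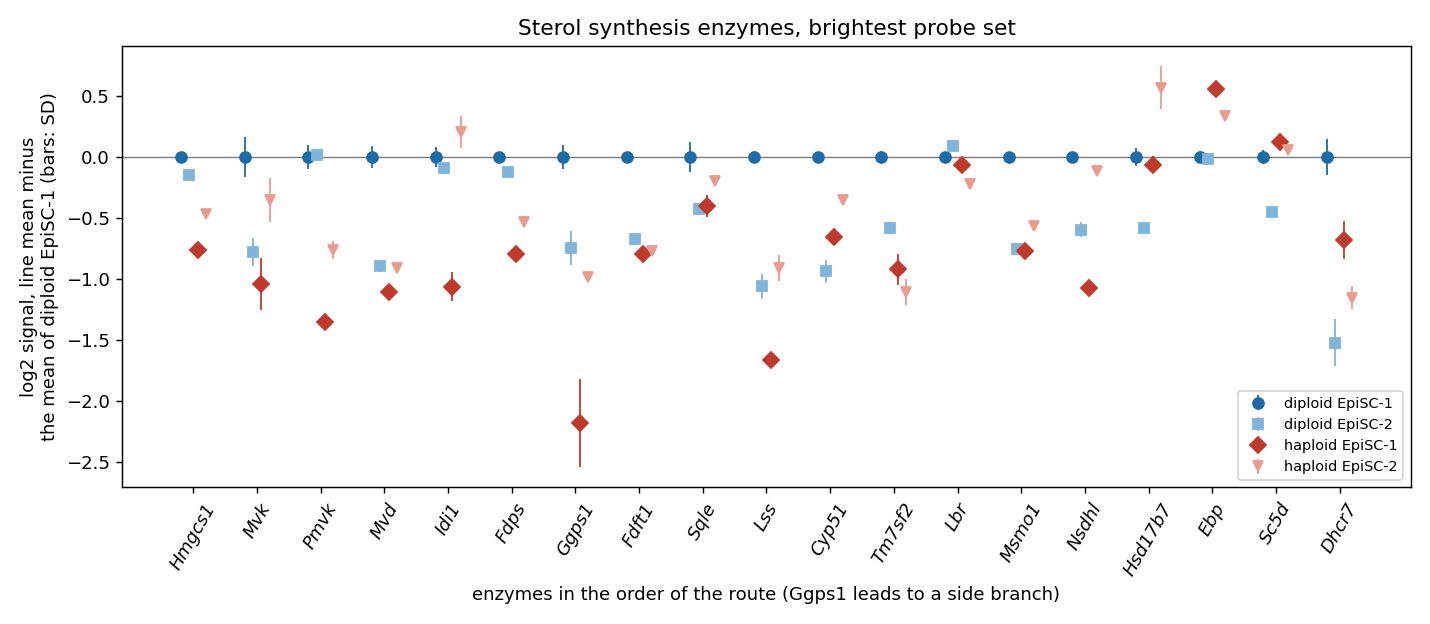
Log2 mean signal of each line minus that of diploid EpiSC-1, brightest probe set, for the 19 tested enzymes of the route including Hmgcs1, Idi1 and Sqle; bars are SDs of the log2 signals of a line (n = 3). Points are shifted sideways to keep them apart. Most points of the other 3 lines lie below 0. Ebp and Sc5d lie above 0 in both haploid lines, Idi1 and Hsd17b7 in haploid EpiSC-2, and Pmvk and Lbr in diploid EpiSC-2.

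In the haploid lines the same 16 enzymes were also mostly lower than in diploid EpiSC-1 and mixed against diploid EpiSC-2. Haploid EpiSC-1 had 2 higher and 12 lower than diploid EpiSC-1 (median -0.79, where 36.6% and 35.2% of all genes were higher and lower), led by Lss (-1.67), Pmvk (-1.36), Nsdhl (-1.08) and Fdft1 (-0.79). Haploid EpiSC-2 had 2 higher and 13 lower (median -0.55; all genes 30.7% and 32.3%), led by Fdft1 (-0.77), Tm7sf2 (-1.11), Msmo1 (-0.56) and Mvd (-0.91). Against diploid EpiSC-2, haploid EpiSC-1 had 5 higher and 9 lower (all genes 37.5% and 32.9%), with Pmvk at -1.37, Fdps at -0.67, Sc5d at 0.58 and Ebp at 0.57. With quantile normalization this count was 7 and 8. Haploid EpiSC-2 had 8 higher and 5 lower than diploid EpiSC-2 (all genes 33.4% and 31.9%), a majority that median centring turned to 5 and 6. In the pathway Pmvk, Mvd and Fdps act before squalene, and Nsdhl, Tm7sf2, Sc5d and Ebp act on the sterol rings.

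Between the haploid lines, 10 of the 16 were higher and 4 lower in haploid EpiSC-2 (median 0.24), where 25% and 30.3% of all genes were higher and lower. Nsdhl rose by 0.96, Lss by 0.75, Pmvk by 0.59 and Ggps1, which leads to a side branch, by 1.20. Median centring gave 11 and 1. With Hmgcs1, Idi1 and Sqle added, haploid EpiSC-2 had 13 of 19 enzymes higher and 4 lower than haploid EpiSC-1, and diploid EpiSC-2 had 0 higher and 15 lower than diploid EpiSC-1. Insig1 was lower in diploid EpiSC-2 than in diploid EpiSC-1, as these enzymes were, while in haploid EpiSC-1, where 15 of the 19 enzymes were lower than in diploid EpiSC-1, it was higher. With line means as units 0 of the 16 enzymes were called between the ploidies (median -0.30), where 2.31% and 1.04% of all genes were higher and lower.

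Genes that process SREBP or take part in the turnover of Insig and other proteins of the endoplasmic reticulum were counted in the same way, with 18 of 19 tested. Diploid EpiSC-2 had 5 higher and 5 lower than diploid EpiSC-1, near the share of all genes (26.1% and 29.1%), and haploid EpiSC-2 had 7 higher and 3 lower than haploid EpiSC-1 (all genes 25% and 30.3%). Haploid EpiSC-1 had 5 and 6 against diploid EpiSC-1 (all genes 36.6% and 35.2%) and 7 and 6 against diploid EpiSC-2 (37.5% and 32.9%), which median centring changed to 3 and 10 and to 3 and 12. Haploid EpiSC-2 had 7 and 3 against diploid EpiSC-1 (30.7% and 32.3%) and 8 and 3 against diploid EpiSC-2 (33.4% and 31.9%), the latter 7 and 6 with centring.

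Sar1a and Sec23a belong to the COPII coat that carries Scap and SREBP out of the endoplasmic reticulum. Sar1a was 0.62 higher in haploid EpiSC-1 and 0.55 higher in haploid EpiSC-2 than in diploid EpiSC-1 (adjusted p = 6.3e-08 and 3.8e-07), and Sec23a 0.83 and 0.56 higher (adjusted p = 5.7e-10 and 7.9e-08). Sec24a, the cargo-binding COPII subunit, stood at -0.57 and -0.54 from diploid EpiSC-2 in the haploid lines (adjusted p = 1.3e-07 and 3.1e-07). Mbtps1, the protease that makes the first cut in SREBP, was 0.52 and 0.49 higher than in diploid EpiSC-2 (adjusted p = 7.1e-07 and 1.8e-06). Rnf145, a ubiquitin ligase of the endoplasmic reticulum, stood at -0.62 in haploid EpiSC-2 from diploid EpiSC-1 (adjusted p = 7.4e-09). These were among the 4 genes with the lowest p in the comparison given, and their values do not stand for the other diploid line.

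Of the genes for sterol uptake and movement, 8 of 10 were tested, and the others were not analysed here. Diploid EpiSC-2 had 1 higher and 4 lower than diploid EpiSC-1 (all genes 26.1% and 29.1%), the lowest p being that of Stard4, a sterol carrier (-1.26, adjusted p = 3.3e-09). Haploid EpiSC-2 had 2 higher and 3 lower than haploid EpiSC-1 (25% and 30.3%). Haploid EpiSC-1 had 3 and 3 against diploid EpiSC-1 (36.6% and 35.2%) and 6 and 1 against diploid EpiSC-2 (37.5% and 32.9%), the latter 3 and 2 with median centring. Haploid EpiSC-2 had 3 and 2 against diploid EpiSC-1 (30.7% and 32.3%) and 5 and 0 against diploid EpiSC-2 (33.4% and 31.9%), the latter 4 and 2 with centring. Lrp1, a lipoprotein receptor also abundant in fibroblasts, was higher in both haploid lines than in both diploid ones, by 1.07 to 1.62 (adjusted p = 2.6e-10 to 3.4e-08). Lipa, the lysosomal lipase that frees cholesterol from its esters, was low in haploid EpiSC-1, with haploid EpiSC-2 1.54 above it (adjusted p = 7.8e-09). Feeder marker sums were also higher in both haploid lines, and their part was not tested.

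The export and liver X receptor list had 4 of 8 genes tested; Nr1h3 and Cyp27a1 lay under the signal level, and the others were not analysed here. Abca1, the pump that loads cholesterol onto apolipoprotein, had mean signals of 43.0, under the level for testing, and 222 in the first and second diploid line, and of 1858 and 407 in the first and second haploid line. It was 5.44 higher in haploid EpiSC-1 than in diploid EpiSC-1 (adjusted p = 3.7e-14) and 2.38 higher in diploid EpiSC-2 (adjusted p = 8.4e-10). Ch25h, which makes 25-hydroxycholesterol, a sterol that binds Insig, had means of 40.3, 18.3, 395 and 321 and was called between the ploidies at 3.94 (SE 0.55, adjusted p = 0.024). The other 3 tested genes of this list were not called there, and both diploid means of Ch25h lay under the signal level for testing, so that it entered the test through the haploid lines.

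The fatty acid synthesis list, a branch that Srebf1 is known to serve, had all 13 genes tested. Diploid EpiSC-2 had 3 higher and 9 lower than diploid EpiSC-1 (median -0.36; all genes 26.1% and 29.1%), led by Scd1 (-2.52), Fads2 (-0.58), Fads1 (-0.69) and Fasn (-0.60). Haploid EpiSC-2 against diploid EpiSC-1 gave 3 and 8 (all genes 30.7% and 32.3%), and haploid EpiSC-1 gave 4 and 6 (36.6% and 35.2%), near the share of all genes. Against diploid EpiSC-2, haploid EpiSC-1 gave 7 and 4 (37.5% and 32.9%), which median centring turned to 3 and 7, and haploid EpiSC-2 gave 3 and 6 (33.4% and 31.9%). Haploid EpiSC-2 against haploid EpiSC-1 gave 4 and 6 (25% and 30.3%), which centring turned to 6 and 3. Scd1, the stearoyl-CoA desaturase, had mean signals of 2065 and 359.6 in the first and second diploid line and 9087 and 6208 in the first and second haploid line, which is the order of Insig1 except between the haploid lines. Between the ploidies 0 of 13 were called with line means as units, and Scd1 stood at 3.12 (adjusted p = 0.086).

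The probe sets most like Insig1 over the 12 arrays were those of Sec61a2 (Pearson r = 0.989), Tbl1x (0.988), Scoc (0.987), Sypl (0.986) and Ugcg (0.985), as a description over arrays that share 4 lines. On the log2 scale the near-background arrays of diploid EpiSC-2 lie furthest from the Insig1 mean. They therefore weigh most in every r with Insig1. Sec61a2 encodes a subunit of the protein channel of the endoplasmic reticulum, and its means were 605, 453, 738 and 738 in the 4 lines. Ugcg, which makes glucosylceramide, read 232, 112, 541 and 489. The 3 most opposite were Cat, Sowahb and Mdm2, each at -0.977, with Cat, the peroxide-splitting catalase, at 4163, 6181, 2639.7 and 2566. Among the other members r with Insig1 ran from -0.76 (Hmgcs1 1433444_at) to 0.70 (Scap 1433520_at), with Srebf1 at -0.67. The order of genes around Insig1 on chromosome 5 was taken from the GRCm38.p6 table. Of the 5 genes on either side, 4 were tested, and the others lay under the signal level in their mean over all arrays. Among the untested, En2, the first after Insig1, had means of 8.21, 15.3, 44.9 and 218 in the 4 lines. It was thus above the level in haploid EpiSC-2 only. Cnpy1, the second after Insig1, was called between the ploidies (2.03, SE 0.31, adjusted p = 0.029), with means of 58.3, 54.6, 221 and 237; both diploid means lay under the signal level, so that Cnpy1 entered the test through the haploid lines. Paxip1 and Rbm33 did not pass there (0.24 and -0.07), nor did Shh (-0.81), whose means ran from 38.6 in haploid EpiSC-1 to 877 in haploid EpiSC-2.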

How the data were processed

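The authors deposited 1 table of MAS5 signal intensity per probe set on a linear scale for the 12 arrays (Affymetrix mouse genome 430 2.0); the MAS5 version, its scaling and detection calls were not given in the sources used here. Per the labels' protocols, Trizol extracts were made into biotin-labelled cRNA for hybridisation. Of 45101 rows, 64 controls were left out; of the rest, 34945 named 1 gene, 932 several and 9160 none. Signals were taken to log2 with no pseudocount and tested without further normalization where the mean log2 signal reached the median of all probe sets (5.97). Line comparisons used limma 3.58.1 in R 4.3.3 (4 group means over 12 arrays, eBayes with intensity trend). Ploidies were compared by limma on the 4 line means, and probe sets of 1 gene by limma on their within-array log2 differences. Tests were first checked on simulated data. Array medians were 63.6 to 76.5, while the mean signal after trimming 2% of rows at each end was 500 in every array. The 3 arrays a line limit the precision. The members, the pathway and marker lists and the rule for named genes (at most 4 per list, by lowest p in the comparison) were chosen with earlier results of these data known. Alternatives were median centring, quantile normalization, a pseudocount, other filters, other treatment of probe sets of a gene, left-out arrays and lines, and blocks.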

Additional observations from a re-analysis of the deposited data

How the results depend on the processing

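Of the differences between lines or ploidies, of single probe sets and of pairs of probe sets of 1 gene, under an alternative, 3023 kept direction and side of the threshold, 34 became calls, 69 were lost and 6 reversed; 42 uncalled values also turned sign without becoming calls. The 6 were, with median centring, Srebf1 in haploid against diploid EpiSC-1 (-0.19), and Sqle (-0.27) and Srebf2 1452174_at (-0.20) in haploid EpiSC-1 against diploid EpiSC-2; and, with the mean of all probe sets of a gene, Scap in haploid EpiSC-2 against diploid EpiSC-1 (-0.0024) and diploid EpiSC-2 (-0.018) and Idi1 against diploid EpiSC-2 (-0.021). Centring changed the share of calls that were higher from 66.4% to 56.2% between the ploidies, 46.0% to 67.8% between the haploid lines, 51.2% to 33.2% for haploid against diploid EpiSC-1, 57.3% to 34.9% for haploid EpiSC-1 against diploid EpiSC-2 (46.5% with quantile normalization) and 56.3% to 43.5% for haploid against diploid EpiSC-2.

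Between the ploidies, the count of members called (0) was 1, in each case Insig1, with a pseudocount of 16 (5.80, adjusted p = 0.027), with signals raised to the filter (5.11, adjusted p = 0.011) and without either diploid line, 5 with the line as a random block and 6 with the replicate block added. The percent of all probe sets called there (3.03) was 0.877 with the stricter filter (the 75th percentile), 15.9 with the random block, 13.6 with the replicate block added, and 1.97, 0.0907 and 0.484 without diploid EpiSC-1, haploid EpiSC-1 and haploid EpiSC-2. With no filter on low signals the percents called were 29.7 between the diploid lines, 27.9 between the haploid lines, 41.3 for haploid EpiSC-1 against each diploid line, and 34.7 and 37.6 for haploid EpiSC-2 against diploid EpiSC-1 and EpiSC-2. Dropping the filter adds probe sets near background. The fits with a random block are of the kind known to call many unchanged genes in simulation. The cause of the other shifts was not tested.

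Leaving out 1 array at a time gave 0 to 1 members called between the ploidies, 9 to 11 between the diploid lines, 12 to 13 between the haploid lines, 15 to 15 and 12 to 13 for haploid EpiSC-1 against diploid EpiSC-1 and EpiSC-2, and 7 to 11 and 11 to 13 for haploid EpiSC-2. Member pairs of probe sets called ranged from 3 to 6 and 1 to 2 between the diploid and the haploid lines, 3 to 3 and 2 to 5 for haploid EpiSC-1, and 2 to 2 and 3 to 4 for haploid EpiSC-2. Same-numbered arrays showed little common deviation (correlations of -0.035 to 0.081 over 18 pairs, 0 above 0.1, 7 best with their own number). They were not paired in the main fits. These values do not settle whether some of them share a batch. The replicate block left the member counts of all 6 line comparisons as they were (11, 13, 15, 12, 11 and 13) and raised member pairs called between the diploid lines from 3 to 4. MAS5 signals near background, such as Insig1 in diploid EpiSC-2, bound the size of a difference only loosely.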
